A study of Mus musculus with 2 samples.

Results

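The genes described here encode homeobox transcription factors that lie outside the 4 Hox clusters, together with paired-box genes and TALE cofactors that act beside them. They were taken from the deposited expression table by symbol from a list of 54 genes, of which 53 were found, each with 1 entry, among the 20906 entries that carry a gene symbol. Dlx1 had no entry under its symbol in the table used here. Each gene was placed in a limb, head, trunk or cofactor group by the role it is best known for, although many of these genes act in several places. Messenger RNA came from mouse embryonic fibroblasts (MEFs), with 1 strand-specific library of Dnmt1+/+ and 1 of Dnmt1-/- cells. The cells called Dnmt1-/- carry 2 copies of a hypomorphic allele of Dnmt1, the maintenance DNA methyltransferase, and both cell lines are described as null for the gene of p53. The age and strain of the embryos and any treatment beyond standard culture are not given in the sources used here. As each genotype has a single library, differences have no replicate check, no test of the genotypes could be made, and a difference between the genotypes cannot be told apart from a difference between the cell lines.

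The unit is the RPKM, a read density that corrects for how long the transcript is and how many reads of the library were mapped, and a change is the difference of log2(RPKM + 0.1) between Dnmt1-/- and Dnmt1+/+. Changes of weakly expressed genes come out smaller on it than their ratio of RPKM. Among low values the most frequent step was 0.0175 RPKM for a read on a transcript of 1 kb in Dnmt1+/+ and 0.0165 in Dnmt1-/-, so that 1 RPKM on a transcript of 2 kb stood for about 114 and 121 reads, and 0.1 RPKM for about 11.4 and 12.1. Dnmt1 itself had 65.2 RPKM in Dnmt1+/+ and 14.5 in Dnmt1-/-, a log2 change of -2.16. Trp53, the gene of p53, was at 18.6 and 19.9 RPKM, so RNA was counted to it in both libraries, and these values do not tell whether it codes for protein. Xist, the RNA that coats the inactive X chromosome, was at 0.00648 and 37.0 RPKM, and Ddx3y, a gene of the Y chromosome, at 13.9 and 0, so the lines also differed in sex-linked transcripts. The median log2 change of the 11244 entries with status OK and at least 1 RPKM in one library or the other was -0.14, and a change relative to these entries is 0.14 above the value printed.

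Homeodomain proteins bind short AT-rich DNA motifs through a conserved fold of helices, and in the embryo each is switched on in a restricted territory. Limb factors such as Pitx1 and Lmx1b set the identity of the hindlimb and of the dorsal side of the limb. Head factors such as the Dlx, Otx and Alx genes pattern jaw, forebrain and skull. TALE proteins of the Meis, Pbx and Pknox families bind DNA together with Hox proteins. Pax1 and Pax9 have a paired domain and no homeodomain, and Tshz1 is a zinc finger factor with a divergent one. Many of these genes are classic targets of the Polycomb complexes, which keep them silent outside their territory. Cultured fibroblasts keep part of the positional pattern of the tissue they came from.

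Of the 53 members, 8 (15.1%) were higher in Dnmt1-/- MEFs by more than 2-fold, against 7.23% of all entries with a gene symbol. Another 11 (20.8%) were lower by more than 2-fold, against 8.03%. The members were chosen with earlier results of these data known, so these shares describe the list only. Among the 34 members that reached 1 RPKM in either library, 6 were higher, against 8.47% of all such entries, and 10 lower, against 10.9%, and since a member can reach that level through the library where it is high, these counts are a description only. The higher members were Vax2, Pax6, Lhx2, Pitx1, Barx1, Nkx2-5, Pax9 and Prrx2, and the lower ones Six2, Alx4, Dlx5, Dlx6, Irx1, Irx3, Lhx6, Otx1, Lhx9, Six4 and Shox2. The remaining 34 stayed within 2-fold. In bulk RNA a lower value can come from fewer cells of a type or from less RNA per cell, which cannot be told apart. The median log2 change of the members was -0.10, with quartiles of -0.62 and 0.31. That of all entries with a gene symbol was 0.00, with quartiles of -0.36 and 0.16. The member at the median was Dlx3, at 0.0341 and 0.0250 RPKM. The changes of the members ran from -6.82 for Six2 to 4.35 for Vax2. Of the members past 2-fold, the nearest to the threshold were Shox2 at -1.17, Prrx2 at 1.19 and Six4 at -1.22. Of those within 2-fold, the nearest were Meis1 at 0.87, Pitx3 at 0.78 and Meis2 at -0.77.

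**Figure D1:**
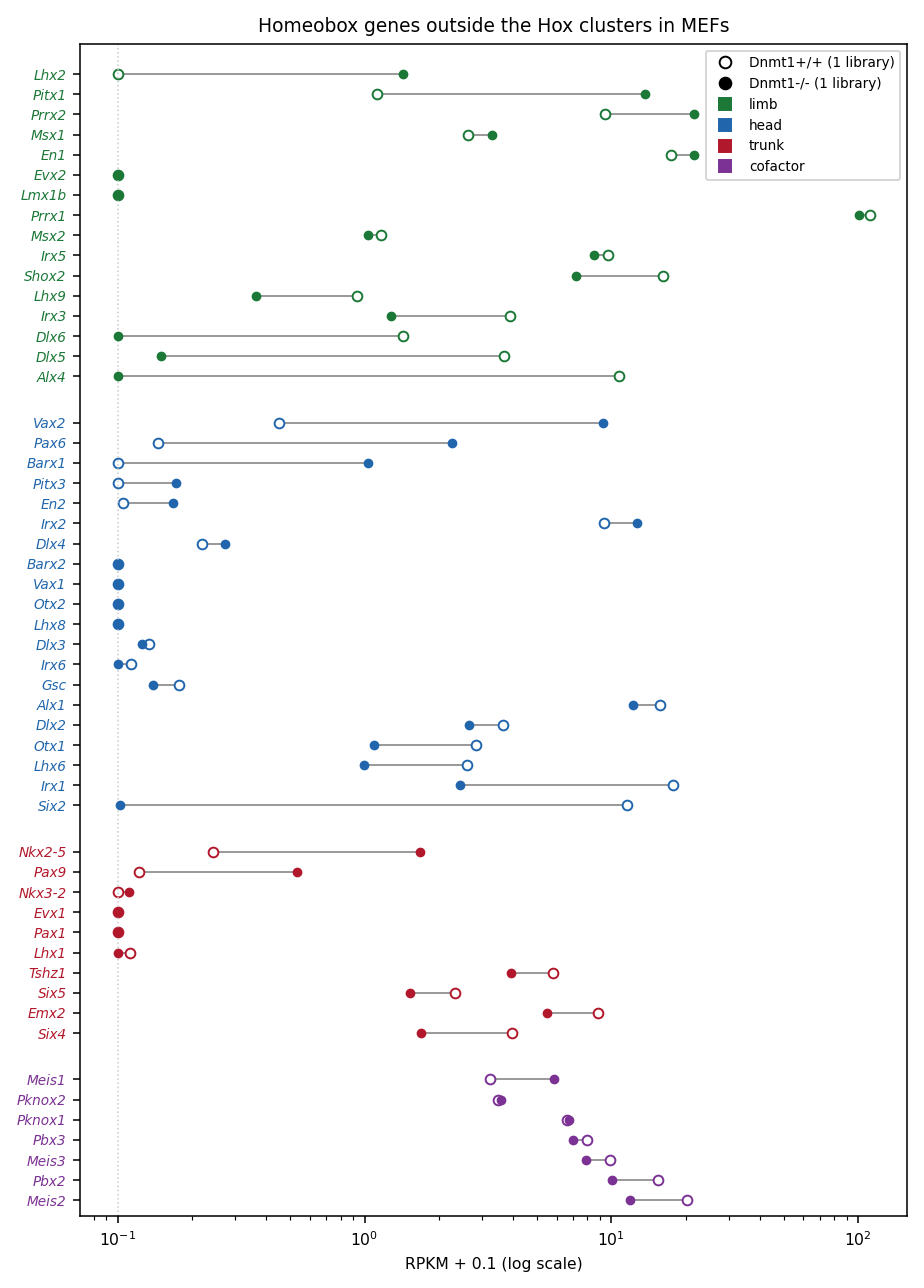
RPKM + 0.1 (horizontal, log scale) of each of the 53 members (vertical) in the 1 library of Dnmt1+/+ (open points) and the 1 library of Dnmt1-/- MEFs (filled points), grouped by role and ordered by change, with no error bars because there are no replicates. Six2 and Alx4 run from above 10 RPKM down to the left edge, Prrx1 lies near 100 RPKM in both libraries, and none of the 7 cofactors differs by 2-fold. Of all entries at 1 RPKM or more in a library 8.47% were higher and 10.9% lower by more than 2-fold.

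Members differed in which library they reached 1 RPKM. Both libraries reached it for 23 members, against 48.2% of all entries with a gene symbol, and neither did for 19, against 46.2%. The 7 at 1 RPKM in Dnmt1+/+ alone were Six2, Alx4, Dlx5, Dlx6, Otx1, Lhx6 and Msx2, or 13.2% of the members against 3.01% of all entries. Of these, Otx1 at 0.993, Msx2 at 0.928 and Lhx6 at 0.892 RPKM were just under 1 in Dnmt1-/-. The 4 at 1 RPKM in Dnmt1-/- alone were Vax2, Pax6, Nkx2-5 and Lhx2, or 7.55% against 2.65%. Summed over the members the RPKM was 338.6 in Dnmt1+/+ and 290.2 in Dnmt1-/-, and Prrx1 alone made up 32.8% and 34.7% of these sums. In the plot against all entries, most of the members above 3 RPKM in both libraries lie within the 2-fold lines, while those at the edges were detected in 1 library and nearly absent from the other.

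**Figure D2:**
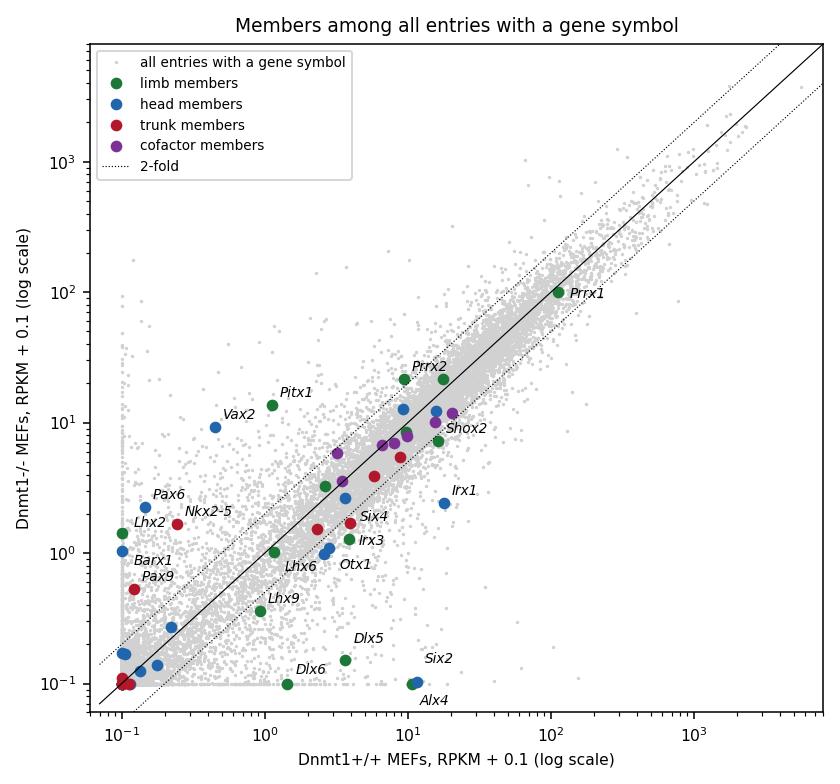
RPKM + 0.1 in Dnmt1-/- (vertical) against Dnmt1+/+ MEFs (horizontal), both on log scales, for the 20906 entries with a gene symbol (grey) and the 53 members (coloured by role). The solid line marks equal values and the dotted lines a 2-fold difference. Members past 2-fold are labelled, as is Prrx1, and Vax2 and Pitx1 lie far above the lines and Six2, Alx4, Dlx5 and Irx1 far below.

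DNA methylation in mammals falls on cytosines followed by guanine, and promoter windows of 300 bases (250 before to 50 after the start, RefSeq, build GRCm38.p6, first listed start) were found by symbol for 35 of the 53 members. These held a median of 18 CG dinucleotides, from 4 for Lhx8 to 50 for Barx1, against a median of 7 over 27025 promoters. The 6 windows of more than 2-fold higher members had a median of 23 and the 6 of lower members 15, with 21 for the 23 windows of members within 2-fold, and the ranges of the groups overlapped. Shown here, 5′ to 3′ on the strand of the gene with CG in capitals, are bases 250 to 71 before the start of 5 members, namely a lower and a higher member with many CG (Six2 and Barx1), a lower and a higher member with few (Lhx9 and Nkx2-5), and the most abundant member, Prrx1. They lie at chr17:85688325-85688504 on the minus strand (Six2), chr1:138842515-138842694 on the minus strand (Lhx9), chr13:48662786-48662965 on the plus strand (Barx1), chr17:26841636-26841815 on the minus strand (Nkx2-5) and chr1:163313721-163313900 on the minus strand (Prrx1).
Six2: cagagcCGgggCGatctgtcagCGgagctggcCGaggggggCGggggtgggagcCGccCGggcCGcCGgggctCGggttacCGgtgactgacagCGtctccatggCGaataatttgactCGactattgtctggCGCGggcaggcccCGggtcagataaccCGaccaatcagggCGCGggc
Lhx9: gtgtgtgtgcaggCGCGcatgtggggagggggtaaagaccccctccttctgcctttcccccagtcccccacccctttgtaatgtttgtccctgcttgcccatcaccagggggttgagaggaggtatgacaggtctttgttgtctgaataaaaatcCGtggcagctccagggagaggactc
Barx1: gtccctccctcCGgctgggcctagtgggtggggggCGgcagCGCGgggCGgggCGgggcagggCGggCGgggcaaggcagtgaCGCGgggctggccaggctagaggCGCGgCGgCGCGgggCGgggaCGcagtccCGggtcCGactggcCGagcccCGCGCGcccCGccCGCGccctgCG
Nkx2-5: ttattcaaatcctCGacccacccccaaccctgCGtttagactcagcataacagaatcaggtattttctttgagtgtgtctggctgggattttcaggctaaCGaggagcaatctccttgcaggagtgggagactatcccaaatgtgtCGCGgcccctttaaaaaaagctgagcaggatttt
Prrx1: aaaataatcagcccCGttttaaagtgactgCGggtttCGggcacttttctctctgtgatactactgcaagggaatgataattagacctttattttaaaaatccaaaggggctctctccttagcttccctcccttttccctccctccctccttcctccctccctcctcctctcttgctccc
The stretches hold 20 CG for Six2, 3 for Lhx9, 27 for Barx1, 5 for Nkx2-5 and 3 for Prrx1. Among the 35 windows, members past 2-fold in either direction stood at both ends of the range of CG content. No window was found for Vax2, Pitx1, Alx4, Dlx5, Dlx6, Irx1 and Otx1, which were also past 2-fold. The homeodomain core TAATTA, which reads the same on both strands, was present in 4 of the 35 windows (11.4%, against 5.31% of all promoters), those of Msx2, Prrx1, Emx2 and Otx2, all of them members within 2-fold. The Meis-type motif TGACAG was present on either strand in 9 windows (25.7%, against 19.3%), those of Six2 and Lhx9, which were lower, of Nkx2-5 and Pax9, which were higher, and of Six5, Lhx1, Nkx3-2, En1 and Evx2, which stayed within 2-fold.

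**Figure D3:**
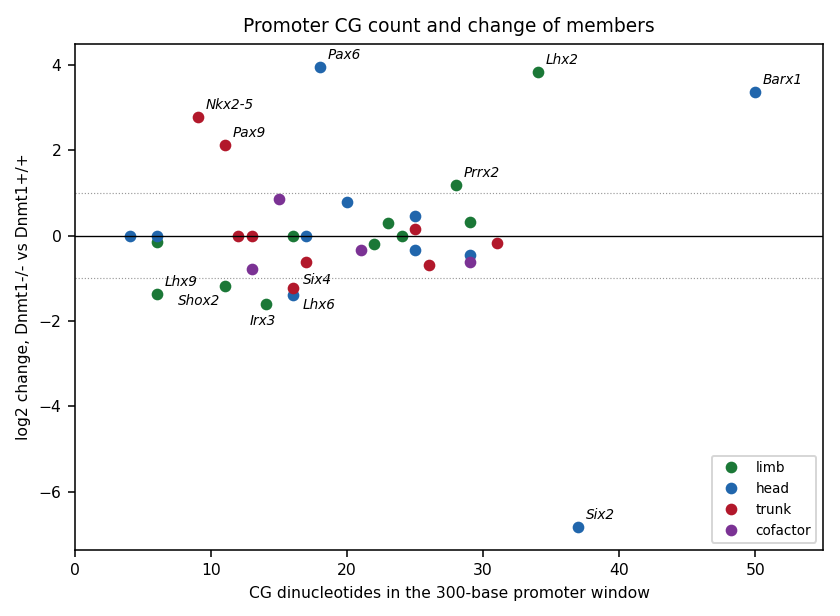
Log2 change from Dnmt1+/+ to Dnmt1-/- MEFs (vertical) against the number of CG dinucleotides in the 300-base promoter window (horizontal) for the 35 members with a window, coloured by role, with dotted lines at 2-fold. Members past 2-fold are labelled, and those with fewer than 12 CG include both Nkx2-5 and Pax9 above the upper line and Lhx9 and Shox2 below the lower one.

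Among the 16 limb members, 3 were higher (18.8%, against 7.23% of all entries with a gene symbol) and 6 lower (37.5%, against 8.03%) by more than 2-fold, with a median log2 change of -0.16. Prrx1, a factor of limb and head mesenchyme (chromosome 1, 165175247 to 165243841, minus strand, mm9), was the most abundant member, at 111.1 RPKM in Dnmt1+/+ and 100.6 in Dnmt1-/-. Its paralog Prrx2 was at 9.33 and 21.5 RPKM, 2.30-fold higher in Dnmt1-/-. Together both had 120.5 RPKM in Dnmt1+/+ and 122.1 in Dnmt1-/-.

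Pitx1, which specifies the hindlimb (chromosome 13, 55926415 to 55937553, minus strand), was at 1.02 RPKM in Dnmt1+/+ and 13.5 in Dnmt1-/-, 13.3-fold higher. Lhx2, a LIM factor needed for limb outgrowth, had 1.34 RPKM in the Dnmt1-/- library and was listed at 0 in the Dnmt1+/+ library. Its paralog Lhx9, which acts with it in the limb bud, was at 0.830 and 0.263 RPKM, a log2 change of -1.36 in the other direction, though under 1 RPKM in both libraries. Lmx1b, which makes the limb dorsal, was listed at 0 in both libraries, while En1, which marks the ventral ectoderm of the limb, was at 17.4 and 21.4 RPKM. Pitx1 and Lhx2 were thus higher in Dnmt1-/-, and Lhx9 was lower.

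Alx4, an aristaless-related gene of the anterior limb bud and skull (chromosome 2, 93482541 to 93521496, plus strand), had 10.7 RPKM in Dnmt1+/+ and was listed at 0 in Dnmt1-/-. Only 12 of the 20906 entries had a larger fall on this scale, and Six2 was among those 12. Dlx5, a distal-less gene of jaw, limb ridge and bone, was at 3.56 and 0.0503 RPKM, and its neighbour Dlx6 was at 1.34 and listed at 0. Shox2, a factor of the proximal limb, was at 16.1 and 7.10 RPKM, 2.28-fold lower in Dnmt1-/-. Irx3, an Iroquois gene of the early limb bud, was at 3.77 and 1.18 RPKM, 3.19-fold lower. The limb genes that stayed within 2-fold were Prrx1, En1, Irx5 at 9.60 and 8.37 RPKM, and the BMP-responsive genes Msx1 at 2.53 and 3.19 and Msx2 at 1.07 and 0.928, beside Lmx1b and Evx2, which were listed at 0 in both.

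Among the 20 head members found, 3 were higher (15.0%, against 7.23% of all entries with a gene symbol) and 4 lower (20.0%, against 8.03%) by more than 2-fold, and the median log2 change was 0.00 because 4 of them were listed at 0 in both libraries. Six2, a factor of head mesenchyme and of kidney progenitors (chromosome 17, 86083608 to 86087594, minus strand), had 11.5 RPKM in Dnmt1+/+ and 0.00236 in Dnmt1-/-, the lowest change of any member. Irx1 was at 17.7 and 2.33 RPKM, 7.59-fold lower in Dnmt1-/- but above 1 RPKM in both. Lhx6, a LIM factor of jaw mesenchyme and of forebrain interneurons, was at 2.49 and 0.892 RPKM, 2.80-fold lower. Otx1, a gene of the forebrain and midbrain, was at 2.73 and 0.993 RPKM, 2.75-fold lower.

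The higher head members were nearly absent from Dnmt1+/+. Vax2, which patterns the ventral eye (chromosome 6, 83661258 to 83688298, plus strand), was at 0.352 RPKM in Dnmt1+/+ and 9.15 in Dnmt1-/-, 26.0-fold higher and the largest rise of any member on the log2 scale. Pax6, the paired-box gene of eye, brain and pancreas (chromosome 2, 105509053 to 105543317, plus strand), was at 0.0461 and 2.16 RPKM. Barx1, a gene of molar teeth and stomach mesenchyme, reached 0.937 RPKM in the Dnmt1-/- library and was listed at 0 in the Dnmt1+/+ library. The ventral eye gene Vax1, the paralog of Vax2, was listed at 0 in both libraries.

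Other head genes were expressed at like levels in both. Alx1, an aristaless-related gene of head mesenchyme, was at 15.6 and 12.1 RPKM, unlike its paralog Alx4. Irx2 was at 9.21 and 12.6 RPKM, and Dlx2, which acts in the branchial arches and forebrain, at 3.52 and 2.55. Of the remaining 10 head members none reached 0.2 RPKM in either library. Otx2, Vax1, Lhx8 and Barx2 were listed at 0 in both, and Dlx3, Dlx4, Pitx3, Irx6, En2 and Gsc had low values in one library or both.

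Among the 10 trunk members, 2 were higher by more than 2-fold (20.0%, against 7.23% of all entries with a gene symbol). By the same rule 1 was lower (against 8.03%). The median log2 change was -0.08. It falls between Lhx1, at 0.0124 and 0 RPKM, and genes listed at 0 in both libraries. Among trunk members at 1 RPKM in one library or the other it was -0.61. Nkx2-5, a factor of heart precursors (chromosome 17, 26975609 to 26978510, minus strand), was at 0.143 RPKM in Dnmt1+/+ and 1.58 in Dnmt1-/-, 11.0-fold higher. Pax9, which acts in sclerotome, teeth and pharyngeal pouches, was at 0.0216 and 0.431 RPKM, while its paralog Pax1 was listed at 0 in both. Six4, a factor of muscle precursors, was at 3.86 and 1.60 RPKM, 2.41-fold lower in Dnmt1-/-. Lower by less than 2-fold were Emx2, a gene of forebrain, urogenital system and scapula, at 8.73 and 5.38 RPKM, Tshz1 at 5.68 and 3.81, and Six5 at 2.23 and 1.43. Lhx1 and Nkx3-2 stayed under 0.02 RPKM in both libraries, and Evx1 was listed at 0 in both.

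All 7 cofactors were above 3 RPKM in both libraries and none was past 2-fold in either direction. Of all entries at 1 RPKM or more in a library 8.47% were higher and 10.9% lower by more than 2-fold. With 7 genes, none past 2-fold is not far from these shares. Their log2 changes ran from -0.77 to 0.87, with a median of -0.19. Meis2 was the most abundant in both, at 20.2 and 11.8 RPKM, and Meis1 was the one with the largest rise, from 3.11 to 5.76. Relative to the median change of expressed entries the change of Meis1 was 1.01, and it then passed 2-fold. Meis3 was at 9.78 and 7.76 RPKM. The Pbx proteins form dimers with Hox and Meis proteins, and Pbx2 was at 15.4 and 9.99 RPKM and Pbx3 at 7.85 and 6.87. Pknox1, at 6.51 and 6.63 RPKM, and Pknox2, at 3.36 and 3.47, were the 2 cofactors with the smallest changes. Summed over the 3 Meis genes the RPKM was 33.1 and 25.4, and over the 2 Pbx genes 23.3 and 16.9.

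Several members are neighbours of one another on the chromosome, and neighbours did not always move together. Dlx5 and Dlx6 lie 9.24 kb apart on chromosome 6 in opposite orientation and were both lower, with log2 changes of -4.61 and -3.85. A pair of transcripts that overlap Dlx6 had low values, Dlx6os1 at 0.443 and 0.00550 RPKM and Dlx6as at 0.0748 and 0. Dlx3 and Dlx4, 15.2 kb apart on chromosome 11, stayed under 0.2 RPKM in both libraries. On chromosome 17 Six3, the neighbour of Six2, was at 0.188 and 0.0968 RPKM.

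The Iroquois genes, which code for TALE-type homeodomain proteins, lie in a pair of clusters. In the cluster of chromosome 13, Irx1 was lower with a log2 change of -2.87, while Irx2, 665.1 kb away, changed by 0.45, and Irx4 was listed at 0 in both libraries. In the cluster of chromosome 8, Irx3 was lower at -1.60, Irx5, 556.1 kb away, changed by -0.19, and Irx6 did not exceed 0.0135 RPKM. In each cluster 1 gene was past 2-fold and the expressed gene next to it was not. Summed over the 5 Irx members the RPKM was 40.3 in Dnmt1+/+ and 24.5 in Dnmt1-/-, of which Irx1 gave 17.7 and 2.33.

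**Figure D4:**
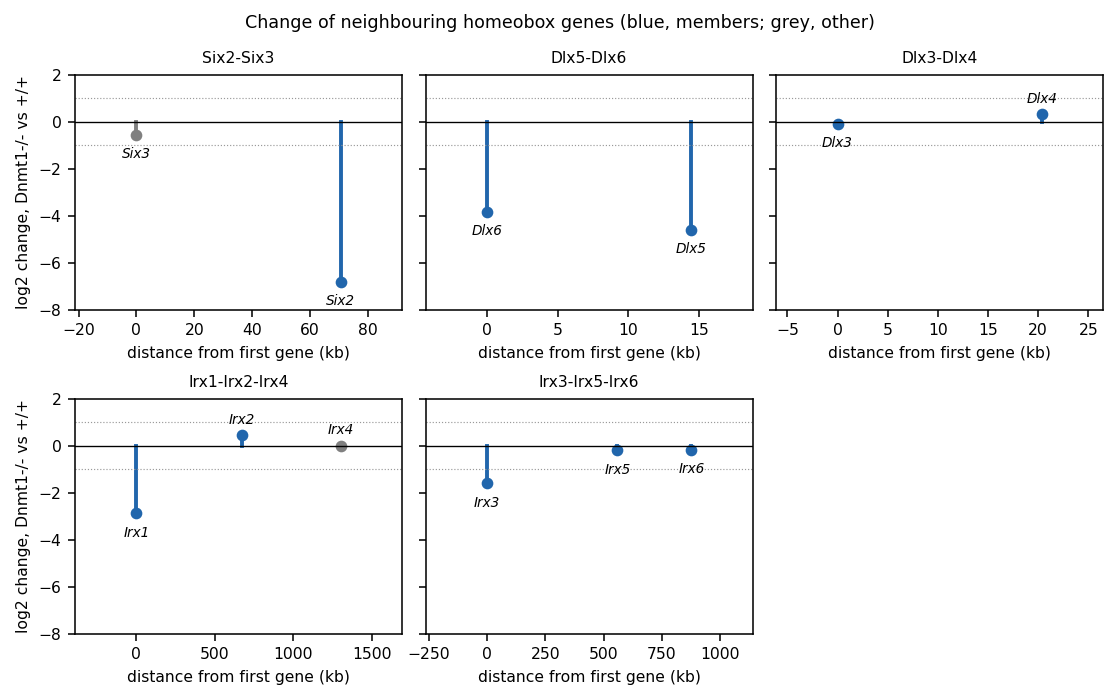
Log2 change from Dnmt1+/+ to Dnmt1-/- MEFs (vertical) at the distance in kb of each gene's lower coordinate from that of the first gene (horizontal) for 5 groups of neighbouring homeobox genes, with members in blue, other genes in grey and dotted lines at 2-fold. Dlx5 and Dlx6 lie far below 0 together, while Irx1 and Irx3 lie below the lower line and Irx2 and Irx5 do not.

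The Evx genes lie at the ends of Hox clusters and were listed at 0 in both libraries. The entry of Evx1, which begins nearer to Hoxa13 than the annotated gene does, lies 47.5 kb from that of Hoxa13. Hoxa13 went from 0 in the Dnmt1+/+ library to 5.38 RPKM in the Dnmt1-/- library. The entry of Evx2 lies 8.88 kb from that of Hoxd13, which was likewise at 0 and 4.07 RPKM. The Evx genes thus stayed at 0 beside Hox genes that were detected in Dnmt1-/- alone.

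Genes other than homeobox genes within 100 kb of the members were mostly within 2-fold. Of 29 such entries beside the 8 higher members, 1 was higher (3.45%) and 1 lower by more than 2-fold. The higher one was the joint entry of Vax2os1 and Vax2os2, which overlaps Vax2 and went from 0 to 3.91 RPKM, and the lower one was Ptges beside Prrx2, from 1.20 to 0.0914 RPKM. Of 14 entries beside the 11 lower members, 2 were more than 2-fold lower (14.3%), Dlx6os1 and Morn5, the latter 2.24 kb from Lhx6 and at 0.366 and 0.0409 RPKM. Of 91 entries beside members within 2-fold, 5 were higher (5.49%) and 7 lower (7.69%), and of all entries with a gene symbol 7.23% were higher and 8.03% lower. Whether reads were assigned by strand is not stated, so values of Vax2 and its overlapping transcripts, and of Dlx6, Emx2 and Msx1 and theirs, are uncertain.

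Entries without a gene symbol also lay near some members. Within 5 kb of the lower members there were 14 of them, beside 5 genes, and 13 were more than 2-fold lower (92.9%, against 27.0% of the 8220 entries without a symbol). Of these, 6 lie before the start of Six2, within 5 kb of its entry and spread over 86088141 to 86092668 of chromosome 17, with 1.25 to 32.4 RPKM in Dnmt1+/+, and all 6 were listed at 0 in Dnmt1-/-. Another lies 1.10 kb beyond the 5′ end of the entry of Otx1, over the 5′ end of the annotated gene, and was at 43.2 RPKM in Dnmt1+/+ but listed at 0 for Dnmt1-/-, and 2 before the start of Irx3 were at 10.9 and 14.3 RPKM in Dnmt1+/+ and at 0 and 5.55 in Dnmt1-/-. Near the higher members there was none. Beside members within 2-fold there were 26, of which 14 were lower (53.8%, against 27.0%) and 4 higher (15.4%, against 19.2%). The lower ones included 3 of the 5 near Alx1, 4 of the 5 near Meis2 and 5 of the 9 near Emx2. Both entries near Six5 were higher, and one of only 96 bases went from 0 to 240.5 RPKM. On so short an entry a given RPKM stands for fewer reads than on a longer one. The 10 on the 5′ side of lower members had a median length of 326.5 bases, entries next to one gene are not independent, and they can be parts of that gene's own transcripts.

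The other homeobox genes were taken from a list of 123 genes that are neither members nor Hox genes, of which 120 were found, with 121 entries. Among these entries 10 were higher by more than 2-fold (8.26%, against 7.23% of all entries with a gene symbol) and 8 lower (6.61%, against 8.03%), and 88 stayed under 1 RPKM in both libraries. Among those that reached 1 RPKM large falls included those of Meox1, a somite gene, from 5.08 to 0.0147 RPKM, Zfhx4, from 9.27 to 0.345, Satb1, a chromatin organizer, from 1.77 to 0, and Zhx2, from 5.38 to 1.12. Large rises included those of an entry of Cux1, from 0.00407 to 4.07 RPKM, Tlx2, from 0.134 to 1.10, Hopx, from 1.35 to 4.51, and Hlx, from 7.71 to 19.1. Cux1 has a second entry, at 47.0 and 80.4 RPKM, so reads of 1 gene may be split between the entries. Of the 33 entries that reached 1 RPKM in at least one library, 6 were higher and 6 lower by more than 2-fold, against 8.47% and 10.9% of all such entries, so the shares of this list depend on the many entries near 0.

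The label of the cells was compared with marker genes. All 10 fibroblast markers had an entry and 8 were above 1 RPKM in both libraries, among them Vim at 2269 and 1873 RPKM and Col1a1 at 1448 and 898. Thy1 was at 4.84 and 0.129 RPKM and Lum under 0.1 in both, while Pdgfra was at 6.95 and 18.7, Dcn at 2.43 and 4.71 and Pdgfrb at 33.9 and 37.8. By more than 2-fold, 3 markers of this list were lower and 1, Pdgfra, was higher. The lower ones were Thy1, Col1a2 at 1241 and 476 RPKM, and Fn1 at 664 and 235. Summed over the list the RPKM was 6002 in Dnmt1+/+ and 3718 in Dnmt1-/-. Most markers of other cell types were under 1 RPKM in both libraries. Csf1r, Cd68, Myf5, Col2a1 and Stmn2 passed 1 RPKM in one library and not in the other. The 4 blood markers summed to 0.666 and 9.73 RPKM, from Csf1r at 0.0702 and 6.08 and Cd68 at 0.596 and 3.63, with Ptprc listed at 0 in both. The 4 skeletal muscle markers summed to 0.119 and 3.40 RPKM, mostly from Myf5 at 0.106 and 3.28, with Myod1 and Myog under 0.05. The 4 cartilage markers summed to 6.42 and 0.0701 RPKM, mostly from Col2a1 at 6.40 and 0.0661, and the 4 neural markers to 2.20 and 0.0399, mostly from Stmn2, with Snap25 and Elavl4 listed at 0 in both. The 4 endothelial markers and the 4 epithelial markers found (Cldn4 had no entry) summed to less than 1 RPKM in each library. The part of these cell types in the values of the members was not tested.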

How the data were processed

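Strand-specific mRNA libraries of Dnmt1+/+ and Dnmt1-/- MEFs, 1 each, were read as 50 bp single-end reads, and the authors used TopHat (build mm9) for mapping and Cufflinks for transcript assembly and deposited the RPKM values of Cuffdiff for 29126 entries, with a status for each. The mm9 (NCBI37) build and annotation were used. Program versions and any further scaling are not given in the sources used here. The table holds no read counts, and no interval is given for a gene, since the worth of a read is an estimate over many genes.

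Entries were matched to the members by symbol, whatever their status (39 OK and 14 NOTEST), and log2(RPKM + 0.1) was compared between the libraries, with a call past 2-fold and no filter on low values. Of the 53 members 34 reached 1 RPKM in at least one library. With 1 library per genotype no test was run. The members and lists were chosen with earlier results of these data known. Values in both libraries are given for members at 1 RPKM or past 2-fold, and for the 5 largest rises and falls of other homeobox genes at 1 RPKM. Some genes covered by this rule are not reported here. Gene coordinates are from the NCBI37 (mm9) annotation, counted from 1, and promoters from RefSeq. The worth of a read was the modal product of low RPKM and transcript length over genes with 1 transcript. The other homeobox genes, the marker genes and the neighbours of members (100 kb, or 5 kb for entries without a symbol) were described in the same way. Entries within 5 kb, CG counts, motifs and gene clusters were chosen once its values had been seen. Python 3.11.15, numpy 2.4.6, pandas 2.3.3 and matplotlib 3.10.9 were used.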

Additional observations from a re-analysis of the deposited data

How the results depend on the processing

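The counts and medians were recomputed under 8 alternatives. With a pseudocount of 1 RPKM the number of members more than 2-fold lower was 7 of 53 in place of 11. Pax9, Barx1, Six4, Otx1, Lhx6 and Lhx9 were no longer past 2-fold. Among the 121 entries of other homeobox genes 4 were higher and 5 lower. Of all entries with a gene symbol 3.75% were then higher and 3.85% lower. With a pseudocount of 0.01 RPKM, 16 of the 121 other homeobox entries were higher, against 11.8% of all entries with a gene symbol. The median log2 change of trunk members was -0.29, and En2, Lhx1, Irx6, Pitx3 and Nkx3-2, all under 0.1 RPKM, passed 2-fold. With status OK only, the trunk median was -0.59. Requiring 1 RPKM in one library or the other gave medians of -0.35 for the members, -0.45 for head and -0.61 for trunk members. Of the 33 other homeobox entries kept, 6 were higher, against 8.47% of all such entries. Requiring a mean of at least 1 RPKM left 30 members, of which 4 were higher. It left 28 other homeobox entries, of which 4 were higher and 5 lower. Of all such entries with a gene symbol 7.42% were higher and 9.91% lower. The medians were -0.40 for the members, -0.45 for head and -0.65 for trunk members. Subtracting the median change of -0.14 gave a median of 0.0395 for the members. By role it was -0.0220 for limb, 0.14 for head, 0.0563 for trunk and -0.0486 for cofactor members. Meis1 passed 2-fold. The sign of the members' median thus depends on the scaling, but the member at that median was Dlx3, at 0.0341 and 0.0250 RPKM. The median of -0.35 for members at 1 RPKM in one library or the other is further below 0 than this shift. At 1.5-fold, 14 of the 121 other homeobox entries were lower, against 16.9% of all entries with a gene symbol. No paired analysis was possible because each genotype has 1 library and no test was made. With 1 library per genotype no library could be left out.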
